A study of Homo sapiens with 4 samples.

Results

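The genes described here encode AP-1 and ATF transcription factors, 10 in all of the 19775 genes that the annotation of the U133 Plus 2.0 GeneChip names: FOS, FOSB, FOSL1, FOSL2, JUN, JUNB, JUND, ATF3, MAFF and BATF. They were chosen by symbol, and each probe set listed for 1 of these genes alone was read, which gave 23 of the 54675 probe sets. The series has 4 arrays, 1 per condition. The cells were Siglec‐14/THP‐1 or Siglec‐5/THP‐1, sublines of a monocytic leukemia line of human origin that carry either Siglec‐14, an activating sialic acid receptor, or Siglec‐5, its inhibitory counterpart, and that stand in for monocytes with or without a functional SIGLEC14 gene. They are called Siglec‐14 cells and Siglec‐5 cells here. All cells were kept for 6 h in serum-free macrophage medium, either with (NTHi[+]) or without (NTHi[−], resting) heat-killed nontypeable Haemophilus influenzae (NTHi) strain 2019 at 100 bacteria per cell. The sources used here do not say whether a subline is a single clone, so the Siglec that a line carries and any other difference between the sublines cannot be told apart.

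AP‐1 is a family of dimers of basic leucine zipper (bZIP) proteins. JUN proteins pair with each other or with FOS proteins, and FOS proteins need a JUN partner to bind DNA. The dimers bind the TPA response element or the related cyclic AMP response element, and MAP kinases both switch on FOS and JUN transcription and phosphorylate the proteins. In monocytes and macrophages, bacterial products induce many of these genes as immediate early genes, and AP‐1 then acts with NF‐κB on cytokine, chemokine and protease genes. ATF3 is induced by stress and by Toll-like receptors and restrains inflammatory genes, MAFF is a small MAF protein without an activation domain, and BATF binds with JUN proteins and IRF factors.

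Since these factors act on such elements, some in their own promoters, the promoters of JUN, ATF3, MAFF and JUND are shown. JUN and ATF3 are the 2 members that differed between the lines by the largest folds with both signals above background. MAFF and JUND are the other members with a match to the motifs below. Promoters without a match, such as those of FOS, FOSL2 and JUNB, are not shown. The 250 bases before the start site are from RefSeq (GRCh38.p14), 5′ to 3′, with capitals for matches to the TPA response element TGACTCA, the cyclic AMP response element TGACGTCA, or TGACATCA and TTACCTCA, a pair of variants described in the JUN promoter. Both strands were searched.
JUN promoter, chr1:58784048-58784297, minus strand: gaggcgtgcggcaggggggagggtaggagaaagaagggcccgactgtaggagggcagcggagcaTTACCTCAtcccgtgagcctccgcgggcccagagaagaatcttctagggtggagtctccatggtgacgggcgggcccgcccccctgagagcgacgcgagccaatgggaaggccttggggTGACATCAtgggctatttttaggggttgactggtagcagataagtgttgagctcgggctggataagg
ATF3 promoter, chr1:212565157-212565406, plus strand: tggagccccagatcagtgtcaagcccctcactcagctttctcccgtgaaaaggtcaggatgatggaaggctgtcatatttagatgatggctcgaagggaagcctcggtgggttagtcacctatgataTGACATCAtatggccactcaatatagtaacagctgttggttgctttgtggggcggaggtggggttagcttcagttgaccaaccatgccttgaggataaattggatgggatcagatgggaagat
MAFF promoter, chr22:38201744-38201993, plus strand: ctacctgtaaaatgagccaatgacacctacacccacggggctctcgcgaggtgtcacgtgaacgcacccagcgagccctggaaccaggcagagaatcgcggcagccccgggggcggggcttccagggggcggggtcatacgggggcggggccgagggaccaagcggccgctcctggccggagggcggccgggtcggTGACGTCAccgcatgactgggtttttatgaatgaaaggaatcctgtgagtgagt
JUND promoter, chr19:18281623-18281872, minus strand: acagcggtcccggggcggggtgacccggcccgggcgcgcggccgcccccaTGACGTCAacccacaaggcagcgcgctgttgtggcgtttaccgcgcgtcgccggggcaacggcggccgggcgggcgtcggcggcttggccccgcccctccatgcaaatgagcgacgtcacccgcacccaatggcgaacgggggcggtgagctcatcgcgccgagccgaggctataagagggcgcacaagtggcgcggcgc
ATF3 and MAFF have 2 promoters each in the table, and the other promoter of either gene held no match. The table held 11 promoters of 9 members (FOSL1 was not matched). Of these 11, 4 held at least 1 of the motifs, which 8.61% of all promoters did, but the JUN match was fixed by the choice of motifs. The JUN promoter had TGACATCA from 67 to 60 bases and TTACCTCA from 186 to 179 bases before the start site, and these letters are those of that promoter. The ATF3 promoter also had TGACATCA, from 123 to 116 bases before the start site. TGACGTCA lay from 54 to 47 bases before the MAFF start site and from 200 to 193 bases before the JUND start site. TGACATCA was present in 2.38% of the 35116 promoters of the table, TGACGTCA in 1.65%, TTACCTCA in 0.644% and TGACTCA, which no member held here, in 4.20%. A match says only that the letters are present in this window, and no motif test was made.

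Signals are intensities on a linear scale, used as deposited. The sums over an array ran from 12735500 to 14047100 and the medians from 15.1 to 16.5. A signal was taken as above background when it reached the median of all signals, 16.02, called the floor. Where only 1 of a pair of signals reached it, the fold is a lower bound against the floor. No condition has replicates, so a difference between a pair of arrays has no replicate check and no test. A limma fit over all 4 arrays, called the shared fit, has a line term (Siglec‐14 over Siglec‐5) and an NTHi term. Both are on the log2 scale, and each averages the log2 ratios of both conditions or both lines. A gene can pass through 1 of these ratios alone, so a pass does not show that the lines or conditions share a difference. The standard errors of the fit come from probe sets of like intensity. They and the p-values thus do not measure the spread between cultures of a line. Of 8 myeloid markers read, 6 reached the floor on all arrays, while CD14 and FCGR1A, markers of mature monocytes, were below it on all 4. MPO, a granule enzyme of immature myeloid cells, gave 1365 (NTHi) and 1152 (rest) in Siglec‐14 cells, against 2186 (NTHi) and 2408 (rest) in Siglec‐5 cells. ITGAM (CD11b), an integrin of mature myeloid cells, gave 353 (NTHi) and 290.1 (rest) in Siglec‐14 cells, against 167 (NTHi) and 198 (rest) in Siglec‐5 cells. LYZ, SPI1, PTPRC and CSF1R, also at the floor on all arrays, had line terms of -0.09, 0.15, 0.31 and 0.61. None of these passed, so MPO and ITGAM do not speak for the markers as a set. Of 4 fibroblast markers, COL1A2 and COL3A1 were below the floor on all arrays, and the summed signal of the list was 289.1 and 289.2 in Siglec‐14 cells against 154.1 and 166.0 in Siglec‐5 cells, nearly all of it COL1A1. The T cell, B cell, epithelial and erythroid lists had 0 or 1 marker each at the floor on all arrays, and their summed signals over 4, 3, 4 and 2 markers lay between 36.1 and 113. The single SIGLEC5 probe set read 19.5 and 21.3 in Siglec‐14 cells and 21.6 and 4.13 in Siglec‐5 cells, so it was below the floor in the resting Siglec‐5 cells and was not higher in the Siglec‐5 line. SIGLEC14 was not read here. Whether the SIGLEC5 probe set reads the introduced sequence is not known here, so the labels of the lines were not checked by either gene.

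Between the lines, most AP‐1 and ATF genes had higher signals in Siglec‐14 cells. In the shared fit, 7 of 9 members tested were higher in Siglec‐14 cells (ATF3, JUN, FOS, MAFF, FOSL2, JUNB and JUND) and 0 were lower, while 6.24% of all 13933 genes tested were higher and 4.95% lower. BATF and FOSL1 did not pass, and FOSB was below the floor on all arrays and was not tested. The median line term of the 9 members was 0.77 on the log2 scale, against -0.03 over all genes tested. These calls rest on limma's intensity trend. Without it, 0 members and 0 genes passed (3 members and 1659 genes at an unadjusted p under 0.05, against 7 members and 22.3% of genes with the trend). MPO, ITGAM and COL1A1 moved with the line as given above, and their part in these differences was not tested. In such bulk samples, fewer cells with a transcript and less of it per cell cannot be told apart. Where the signals of the lines are said below not to overlap, this is a description of 4 arrays. The share of all genes ordered in this way was not counted.

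**Figure D1:**
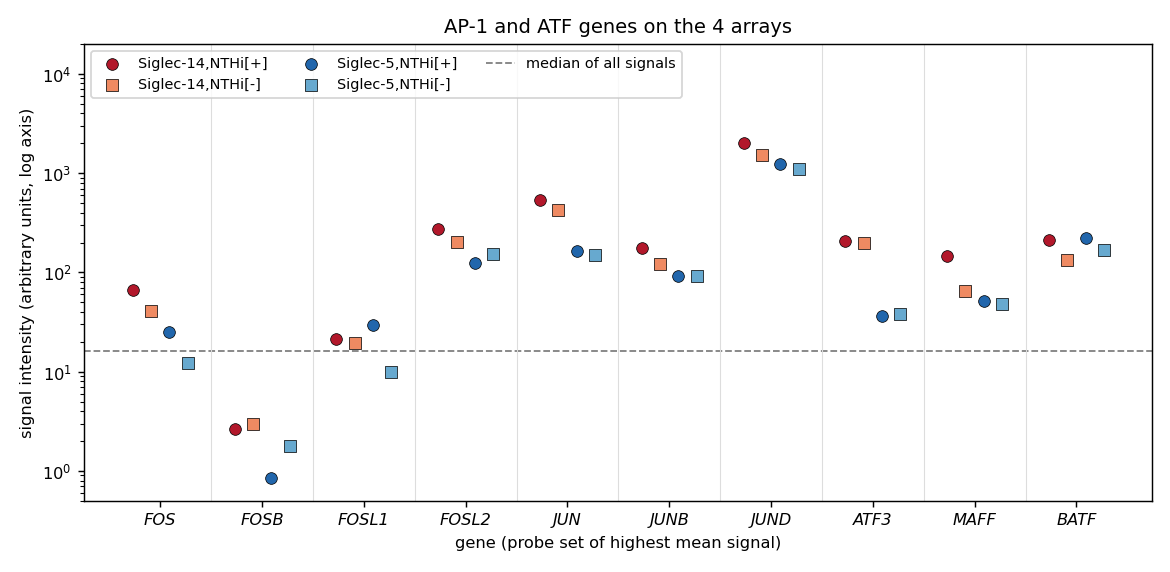
Signal intensity (log axis) of the 10 genes on the probe set of highest mean signal, 1 point per array, with Siglec‐14 cells in red and orange and Siglec‐5 cells in dark and light blue; circles are NTHi[+], squares NTHi[−], and the dashed line is the floor of 16.02. For ATF3, JUN and FOS both points of the Siglec‐14 cells lie above both of the Siglec‐5 cells, and FOSB lies below the floor throughout.

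ATF3 had the widest gap between the lines among the members. Its main probe set, the one of highest mean signal, gave 209 (NTHi) and 197 (rest) in Siglec‐14 cells, against 36.6 (NTHi) and 38.3 (rest) in Siglec‐5 cells. The values of the lines did not overlap, and within each line the stimulated and resting signals were close (log2 ratios of 0.08 and -0.06). The signal was 5.71-fold higher in Siglec‐14 cells with NTHi and 5.16-fold higher without. In the shared fit the gap was 2.44 on the log2 scale (standard error, SE, 0.21, adjusted p = 4.51e-29, limma), rank 174 from the top among 13933 genes. A 2nd probe set of ATF3 had smaller folds of 2.21 with NTHi and 2.05 without. A 3rd one, dim and with 2 arrays below the floor, gave lower bounds of 1.48-fold in favour of Siglec‐5 cells with NTHi and 1.43-fold in favour of Siglec‐14 cells without.

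Among the JUN proteins, JUN, the partner that most AP‐1 dimers contain, differed most between the lines. Its main probe set, of a type that can also bind related sequences, gave 538 (NTHi) and 424 (rest) in Siglec‐14 cells, against 165 (NTHi) and 149 (rest) in Siglec‐5 cells. Both signals of the Siglec‐14 cells were above both of the Siglec‐5 cells. The ratio of Siglec‐14 cells to Siglec‐5 cells was 3.25 with NTHi and 2.84 without, and the 3 probe sets that reached the floor on all arrays had ratios of 2.52 to 3.25 with NTHi and 2.72 to 3.36 without. The line term was 1.60 (SE 0.16, adjusted p = 1.02e-20, limma).

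JUNB and JUND, weaker activators that can restrain JUN in some settings, differed less. JUNB gave 174 (NTHi) and 122 (rest) in Siglec‐14 cells, against 92.8 (NTHi) and 91.9 (rest) in Siglec‐5 cells. JUND, which is expressed in most resting cells, gave 2019 (NTHi) and 1508 (rest) in Siglec‐14 cells, against 1228 (NTHi) and 1104 (rest) in Siglec‐5 cells. For both genes the 2 signals of the Siglec‐14 cells were the higher ones. The line term was 0.66 (SE 0.19, adjusted p = 0.0105, limma) for JUNB and 0.58 (SE 0.15, adjusted p = 0.00328, limma) for JUND. The dimmer probe sets of JUND did not pass, and their ratios between the stimulated lines ran in both directions, so that the mean log2 ratio over all 4 probe sets was -0.08, against 0.72 on the main one.

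Among the FOS proteins, FOS, the immediate early partner of JUN, was low but ordered by line. Its only probe set gave 67.1 (NTHi) and 41.1 (rest) in Siglec‐14 cells, against 25.3 (NTHi) and 12.3 (rest, below the floor) in Siglec‐5 cells. The signal of resting Siglec‐14 cells was thus above that of stimulated Siglec‐5 cells. FOS was 2.66-fold higher in Siglec‐14 cells with NTHi and at least 2.57-fold higher without. The line term, which takes the signal below the floor as it stands, was 1.57 (SE 0.35, adjusted p = 0.000265, limma), and it was 1.01 with a pseudocount equal to the floor.

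FOSL2 (FRA‐2), a FOS relative that is made later and lasts longer, gave 273 (NTHi) and 203 (rest) in Siglec‐14 cells, against 126 (NTHi) and 151 (rest) in Siglec‐5 cells. On this main probe set the lines did not overlap, and the gap was 2.17-fold with NTHi and 1.34-fold without. The line term there was 0.77 (SE 0.17, adjusted p = 0.000298, limma). A dimmer probe set at the floor on all arrays also passed, with ratios of 2.26 with NTHi and 1.23 without. Another such probe set overlapped and did not pass, with 40.4 (NTHi) and 36.9 (rest) in Siglec‐14 cells, against 24.9 (NTHi) and 38.0 (rest) in Siglec‐5 cells. On the mean over the 5 probe sets of FOSL2, dim ones included, the log2 ratio at rest was -0.53, against 0.42 on the main one. FOSL1 (FRA‐1), which MAP kinase signals stabilize, lay near the floor, with 21.4 (NTHi) and 19.3 (rest) in Siglec‐14 cells and 29.2 (NTHi) and 9.99 (rest) in Siglec‐5 cells, and its lines overlapped. FOSB, another early FOS relative, had signals between 0.846 and 2.94 on the 4 arrays, so no fold is given.

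On its main probe set MAFF gave 147 (NTHi) and 64.5 (rest) in Siglec‐14 cells, against 51.1 (NTHi) and 47.8 (rest) in Siglec‐5 cells. The lines did not overlap there, with ratios of 2.87 with NTHi and 1.35 without and a line term of 0.98 (SE 0.23, adjusted p = 0.000506, limma). On its other probe set the ratios were 1.03 and 1.68, and the line term did not pass (adjusted p = 0.542, limma). BATF, in contrast, was not higher in Siglec‐14 cells, with 214 (NTHi) and 134 (rest) in Siglec‐14 cells and 223 (NTHi) and 170 (rest) in Siglec‐5 cells. Its lines overlapped, and the line term was -0.20 (SE 0.17, adjusted p = 0.614, limma).

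The 3-fold threshold of the study's methods was applied to each pair of arrays, with the floor in place of its detection rule. Its joint rule, which also asks for a 3-fold rise with NTHi in Siglec‐14 cells, was not applied. By this threshold, 2 of 9 members, JUN and ATF3, were higher in the stimulated Siglec‐14 cells, where 4.06% of genes were. At rest they were FOS and ATF3, where 3.51% of genes were, and FOS reached it only with its signal below the floor taken as it stands. On the main probe sets no member was 3-fold lower, where the background was 1.69% with NTHi and 1.7% without. At 2-fold, 5 members were higher with NTHi (FOS, FOSL2, JUN, ATF3 and MAFF) and 3 at rest (FOS, JUN and ATF3), where 7.63% and 6.23% of genes were, and 0 were lower, where 3.37% and 3.97% were. With signals below the floor raised to it, the median log2 ratio of the 10 members was 1.01 with NTHi and 0.43 without, against 0.06 and -0.12 over all genes.

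**Figure D2:**
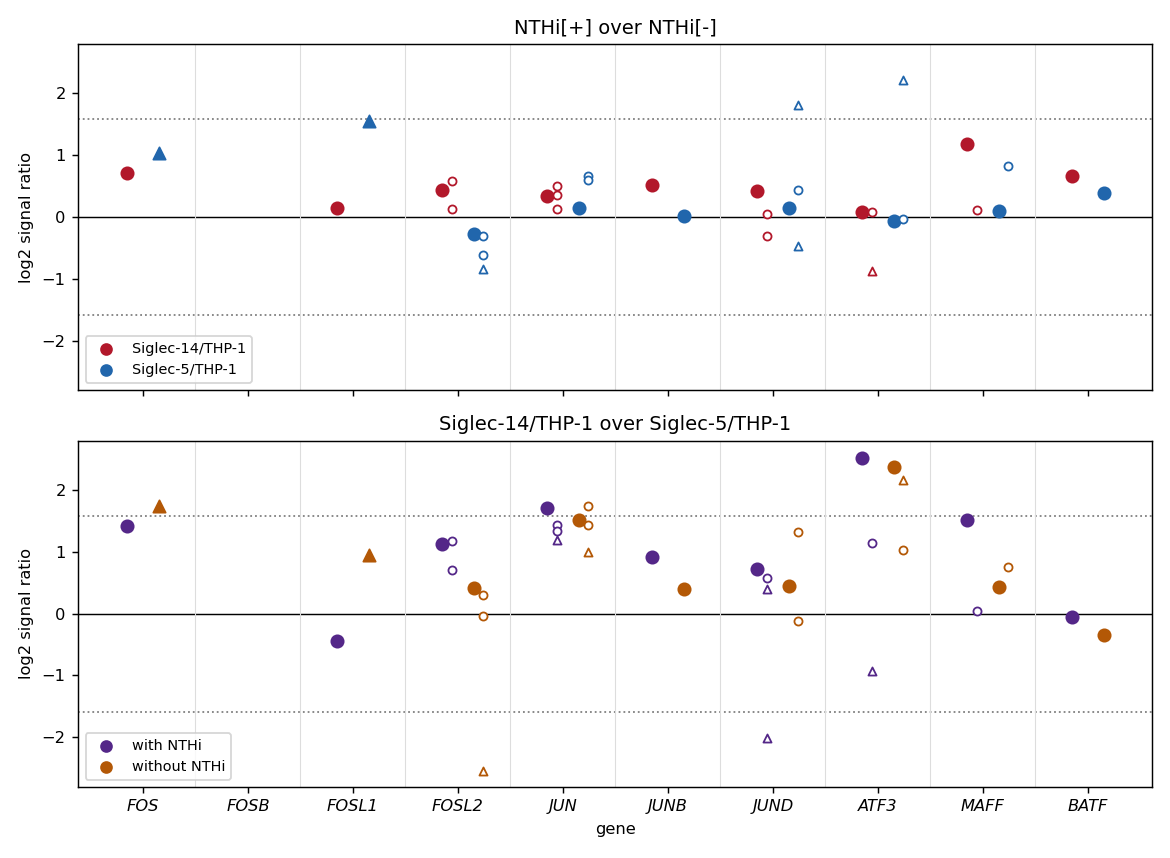
Log2 signal ratios per gene, NTHi[+] over NTHi[−] above (red Siglec‐14 cells, blue Siglec‐5 cells) and Siglec‐14 cells over Siglec‐5 cells below (purple with NTHi, brown without). Filled symbols are the probe set of highest mean signal, open symbols other probe sets (drawn just to the right), triangles ratios in which 1 signal was below the floor, taken as it stands, and dotted lines a ratio of 3; no filled symbol in the upper panel passes the dotted lines, whereas ATF3 passes in both conditions below.

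After 6 h with NTHi, no AP‐1 or ATF gene passed the test with signals as deposited, while 2 or 3 passed once the arrays were rescaled. In the shared fit 0 of 9 members passed for NTHi in either direction, where 0.99% of all genes tested passed as higher and 0.294% as lower. At an unadjusted p under 0.05, 3 members passed (FOS, MAFF and BATF), where 6.73% of genes did. With each array scaled to the same sum, 2 members rose, JUND and BATF (background 2.45%), and the same 2 rose after quantile normalization (1.64%). With arrays scaled to the same median (2.12%) or the same trimmed mean (3.69%), 3 rose, JUND, MAFF and BATF. The adjusted p of BATF was 0.148 with signals as deposited and 0.00203 to 0.0223 under these 4 scalings. No member reached 3-fold with NTHi in either line with signals as deposited, where 1.67% of genes were 3-fold higher and 1.93% lower in Siglec‐14 cells, and 1.87% higher and 2.08% lower in Siglec‐5 cells. A single time was sampled, so earlier changes are not analysed here.

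In Siglec‐14 cells, all 9 members above the floor had higher signals with NTHi, by 1.06-fold for ATF3 to 2.27-fold for MAFF. The share of all genes that were higher was not counted, and the median over all genes was also above 0, as given below. The count is thus a description and not a result about these genes. MAFF was the only member to reach 2-fold higher, as 3.5% of all genes did, and 0 were 2-fold lower, as 3.39% were. Its other probe set was 1.08-fold higher, so that the 2 probe sets of the gene disagreed. FOS was 1.63-fold higher, BATF 1.59-fold, JUNB 1.43-fold, FOSL2 1.35-fold, JUND 1.34-fold and JUN 1.27-fold. The mean log2 ratio over the 4 probe sets of JUND was -0.23. The median log2 ratio over the 10 members, with signals raised to the floor, was 0.43, against 0.08 over all genes. Scaled to the same sum, ATF3 had a log2 ratio of -0.05 in this line, so that its direction is not settled.

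In Siglec‐5 cells, 7 of the 9 members had higher signals with NTHi and 2, FOSL2 and ATF3, had lower ones. The share of all genes that were higher was not counted here either, so these counts are a description only. BATF was 1.31-fold higher, JUND 1.11-fold, JUN 1.11-fold, MAFF 1.07-fold and JUNB 1.01-fold. FOS was at least 1.58-fold higher and FOSL1 at least 1.83-fold, each from a resting signal below the floor. FOSL1 and FOS were the 2 members past 2-fold with signals as they stand, where 3.19% of all genes were, and 0 members were 2-fold lower, where 4.06% were. ATF3 had a log2 ratio of -0.06 here, which was above 0 under each of the 4 scalings. The median log2 ratio over the 10 members was 0.12, against -0.11 over all genes.

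The signal of FOSL2 moved in opposite directions with NTHi in the lines. As deposited, the median log2 ratio over all genes also did, with 0.08 in Siglec‐14 cells and -0.11 in Siglec‐5 cells. After quantile normalization the log2 ratios of FOSL2 were 0.37 in Siglec‐14 cells and -0.15 in Siglec‐5 cells. Its main probe set was 1.35-fold higher with NTHi in Siglec‐14 cells, and its signal in Siglec‐5 cells was 0.830 times the resting one. All 3 of its probe sets that reached the floor on every array had this pattern, with ratios of 1.10 to 1.49 in Siglec‐14 cells and 0.655 to 0.830 in Siglec‐5 cells. They read the same RNA and are not replicates. For MAFF the log2 response of Siglec‐14 cells minus that of Siglec‐5 cells was 1.09 on the main probe set and -0.71 on the other. With 1 array per condition, none of these differences between responses could be tested.

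**Figure D3:**
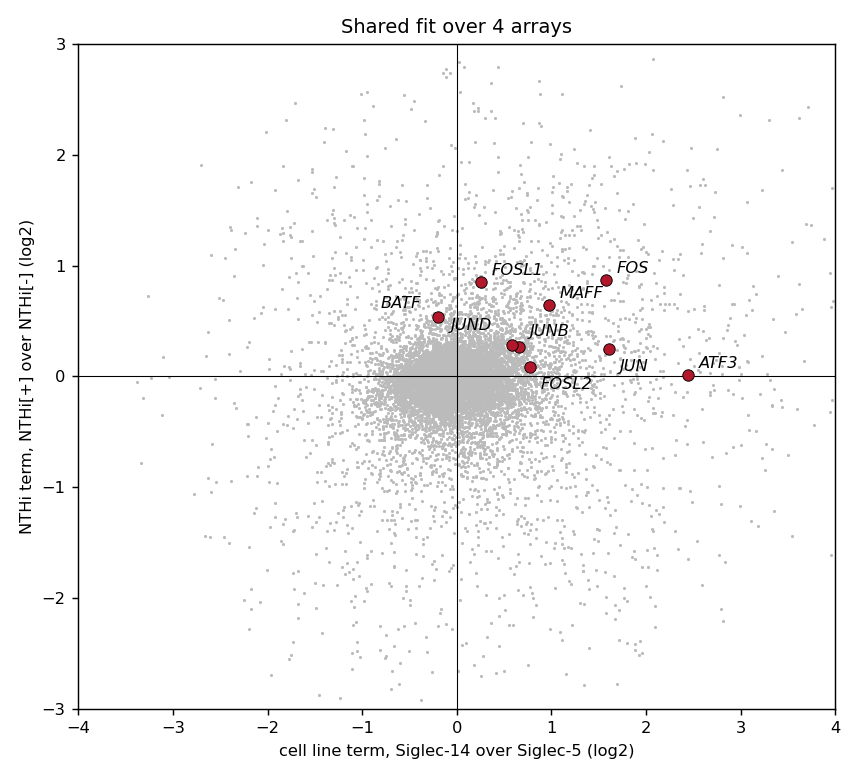
Terms of the shared limma fit for 13933 genes (grey), with the cell line term (Siglec‐14 over Siglec‐5, log2) on the x axis and the NTHi term (NTHi[+] over NTHi[−], log2) on the y axis; red points are the 9 members tested, and 61 genes lie outside the axes. Most members lie to the right, up to 2.44 for ATF3, but BATF is at -0.20 and FOSL1 at 0.25, and neither passed. The NTHi terms of the members stay between 0.01 and 0.87.

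The members were then set beside other bZIP genes, the kinases that act on them and the genes that they act on. Of 27 other bZIP genes tested, 5 were higher in Siglec‐14 cells (JDP2, CREM, NFE2L3, DDIT3 and CREB3) and 0 lower, where 6.24% and 4.95% of all genes were, and the median line term was 0.10. JDP2, a JUN partner that represses AP‐1 sites, gave 396 (NTHi) and 293 (rest) in Siglec‐14 cells, against 167 (NTHi) and 197 (rest) in Siglec‐5 cells. It and CREM, a factor of cyclic AMP response elements with activating and repressing isoforms, were picked here after their values were seen. CREM gave 237 (NTHi) and 240 (rest) in Siglec‐14 cells, against 91.4 (NTHi) and 113 (rest) in Siglec‐5 cells. NFE2L3 (NRF3), which pairs with small MAF proteins such as MAFF, was the only bZIP gene of this list to rise with NTHi, and 0 fell, where 0.99% and 0.294% of all genes did. Its signals were 359 (NTHi) and 219 (rest) in Siglec‐14 cells and 240 (NTHi) and 122 (rest) in Siglec‐5 cells, for an NTHi term of 0.84 (SE 0.17, adjusted p = 0.000136, limma). A dimmer probe set of NFE2L3 was higher with NTHi by 1.59-fold in Siglec‐14 cells and 1.76-fold in Siglec‐5 cells and did not pass. CREB5, a further CRE binding factor, was at 16.3 in resting Siglec‐14 cells and 2.13 in resting Siglec‐5 cells, at least 1.02-fold higher against the floor.

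Of 26 MAP kinases and factors upstream of AP‐1, 2 rose with NTHi and 1 fell, where 0.99% and 0.294% of all genes did. MAP3K8 (TPL2), the kinase that links Toll-like receptors to ERK, gave 110 (NTHi) and 61.0 (rest) in Siglec‐14 cells, and 142 (NTHi) and 86.2 (rest) in Siglec‐5 cells. A probe set of MAP3K8 near the floor did not pass, with 18.6 (NTHi) and 11.0 (rest) in Siglec‐14 cells and 16.9 (NTHi) and 17.8 (rest) in Siglec‐5 cells. ELK1, an ERK-driven activator of FOS, gave 261 (NTHi) and 174 (rest) in Siglec‐14 cells and 288 (NTHi) and 177 (rest) in Siglec‐5 cells. A further probe set of ELK1 did not pass, with 69.6 (NTHi) and 60.7 (rest) in Siglec‐14 cells and 58.0 (NTHi) and 81.4 (rest) in Siglec‐5 cells. MAPK3, which encodes ERK1, gave 26.2 (NTHi) and 82.1 (rest) in Siglec‐14 cells, and 88.3 (NTHi) and 89.0 (rest) in Siglec‐5 cells, so that 1 array was low. Its call for NTHi (adjusted p = 0.0446, limma) rests on that 1 array. Between the lines, 3 genes of this list were higher in Siglec‐14 cells (ELK3, MAPK11 and RPS6KA1) and 1, MAPK3, was lower, where 6.24% and 4.95% of all genes were. The line call of MAPK3 rests on the same low array, and at rest its ratio between the lines was 0.922. ELK3, an SRF partner that can repress FOS, gave 1116 (NTHi) and 1073 (rest) in Siglec‐14 cells, against 364 (NTHi) and 448 (rest) in Siglec‐5 cells.

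Of 20 textbook AP‐1 target genes tested, 9 rose with NTHi and 0 fell (CXCL8, TNF, CCL2, IL1B, ICAM1, MMP9, PLAUR, PTGS2 and HBEGF), where 0.99% and 0.294% of all genes did. Many of them are also NF‐κB targets. The study had picked CXCL8 (IL8), CCL2, IL1B and ICAM1 from these same arrays for a rise with NTHi and a higher signal in Siglec‐14 cells. Their calls for NTHi and for the line were thus known beforehand and add no support. They are among the 9 here and the 16 below, and the list was chosen with earlier results of these data known. Neither count is therefore a test against the share of all genes. HBEGF, an EGF receptor ligand, gave 307 (NTHi) and 171 (rest) in Siglec‐14 cells and 270 (NTHi) and 183 (rest) in Siglec‐5 cells. A dimmer HBEGF probe set did not pass, with 85.4 (NTHi) and 57.8 (rest) in Siglec‐14 cells and 83.5 (NTHi) and 79.2 (rest) in Siglec‐5 cells. PTGS2, the inducible cyclooxygenase, gave 96.8 (NTHi) and 40.2 (rest) in Siglec‐14 cells and 51.4 (NTHi) and 27.3 (rest) in Siglec‐5 cells. Between the lines, 16 of the 20 were higher in Siglec‐14 cells and 0 were lower, where 6.24% and 4.95% of all genes were. They were CXCL8, TNF, CCL2, IL1B, ICAM1, MMP1, MMP9, PLAU, PLAUR, TIMP1, SPP1, HMOX1, VEGFA, LIF, IL11 and DUSP1. The median line term was 2.04, where a signal under the floor entered as it stood. MMP1, LIF and IL11 reached the floor only in Siglec‐14 cells, so they were tested only through those arrays. Their calls add no support. A further 5 targets (IL6, MMP3, MMP10, MMP12 and GJA1) were below the floor on all arrays and were not tested. MMP1, interstitial collagenase, gave 186 (NTHi) and 190 (rest) in Siglec‐14 cells, against 1.76 (NTHi) and 1.02 (rest) in Siglec‐5 cells, at least 11.6-fold higher with NTHi and 11.9-fold without. DUSP1, a phosphatase that switches off MAP kinases, gave 295 (NTHi) and 198 (rest) in Siglec‐14 cells, against 31.5 (NTHi) and 27.7 (rest) in Siglec‐5 cells. A dimmer probe set of DUSP1, at the floor on all arrays, had no such gap, with 25.5 (NTHi) and 33.7 (rest) in Siglec‐14 cells and 28.2 (NTHi) and 31.9 (rest) in Siglec‐5 cells, and did not pass (adjusted p = 0.983, limma). PLAUR, the urokinase receptor, gave 1809 (NTHi) and 1001 (rest) in Siglec‐14 cells, against 418 (NTHi) and 287 (rest) in Siglec‐5 cells. Of the 2 further PLAUR probe sets at the floor on all arrays, both passed for the line and 1 did not pass for NTHi, with 288 (NTHi) and 238 (rest) in Siglec‐14 cells and 96.6 (NTHi) and 92.9 (rest) in Siglec‐5 cells. SPP1 (osteopontin) gave 991 (NTHi) and 1043 (rest) in Siglec‐14 cells, against 41.0 (NTHi) and 52.7 (rest) in Siglec‐5 cells. HMOX1 (heme oxygenase) gave 84.2 (NTHi) and 68.3 (rest) in Siglec‐14 cells, against 19.5 (NTHi) and 17.4 (rest) in Siglec‐5 cells. The cytokines LIF and IL11 were below the floor in both conditions of the Siglec‐5 cells, and were higher in Siglec‐14 cells by at least 3.17-fold (NTHi) and 1.77-fold (rest) for LIF and at least 4.96-fold (NTHi) and 4.66-fold (rest) for IL11. CCND1, a cyclin of the cell cycle, was at least 1.55-fold (NTHi) and 1.15-fold (rest) higher there and did not pass.

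**Figure D4:**
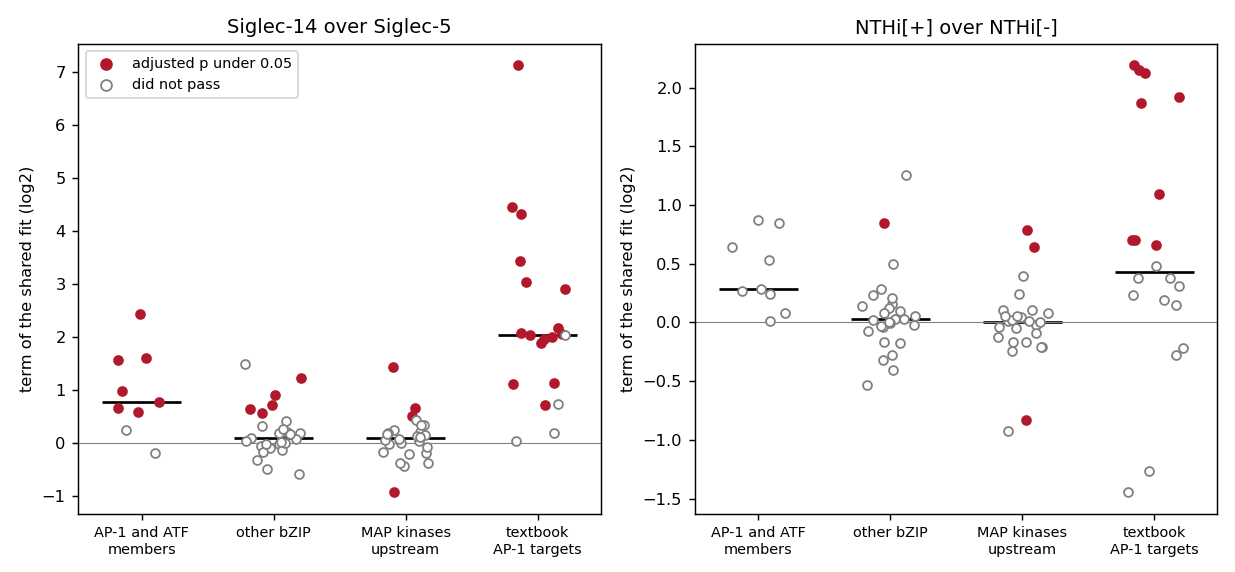
Terms of the shared fit (log2) for the 9 members tested and 3 gene lists, 1 point per gene, with the line term on the left and the NTHi term on the right; red points passed an adjusted p of 0.05, open points did not, and black bars are medians. The medians of the line term are 0.77 for the members, 0.10 for other bZIP genes and for upstream kinases, and 2.04 for the targets. Of the targets, CXCL8, CCL2, IL1B and ICAM1 had been picked by the study from these same arrays.

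The 4 members that reached the floor on all arrays and spanned at least 2-fold were compared in shape with 11031 genes, by the distance between mean-centred log2 profiles over the 4 arrays. The genes nearest to ATF3 were UPP1 (distance 0.16), CSF1 (0.18) and PKIB (0.22). CSF1, the macrophage growth factor, gave 102 (NTHi) and 101 (rest) in Siglec‐14 cells, against 16.9 (NTHi) and 20.9 (rest) in Siglec‐5 cells. Nearest to JUN were MCOLN3 (0.08), SERTAD1 (0.11) and TFEB (0.11), the lysosomal regulator, which gave 319 (NTHi) and 242 (rest) in Siglec‐14 cells, against 88.3 (NTHi) and 84.1 (rest) in Siglec‐5 cells. Nearest to FOSL2 were SIK1 (0.02), LINC03040 (0.08) and ATP7A (0.10), and nearest to MAFF were ASB2 (0.09), TP53INP2 (0.29) and LRRK2 (0.30). SIK1, a kinase that restrains CREB coactivators, gave 101 (NTHi) and 73.4 (rest) in Siglec‐14 cells, against 46.3 (NTHi) and 55.5 (rest) in Siglec‐5 cells. Each profile has 4 points, 1 per array, and the distances are a description only.

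**Figure D5:**
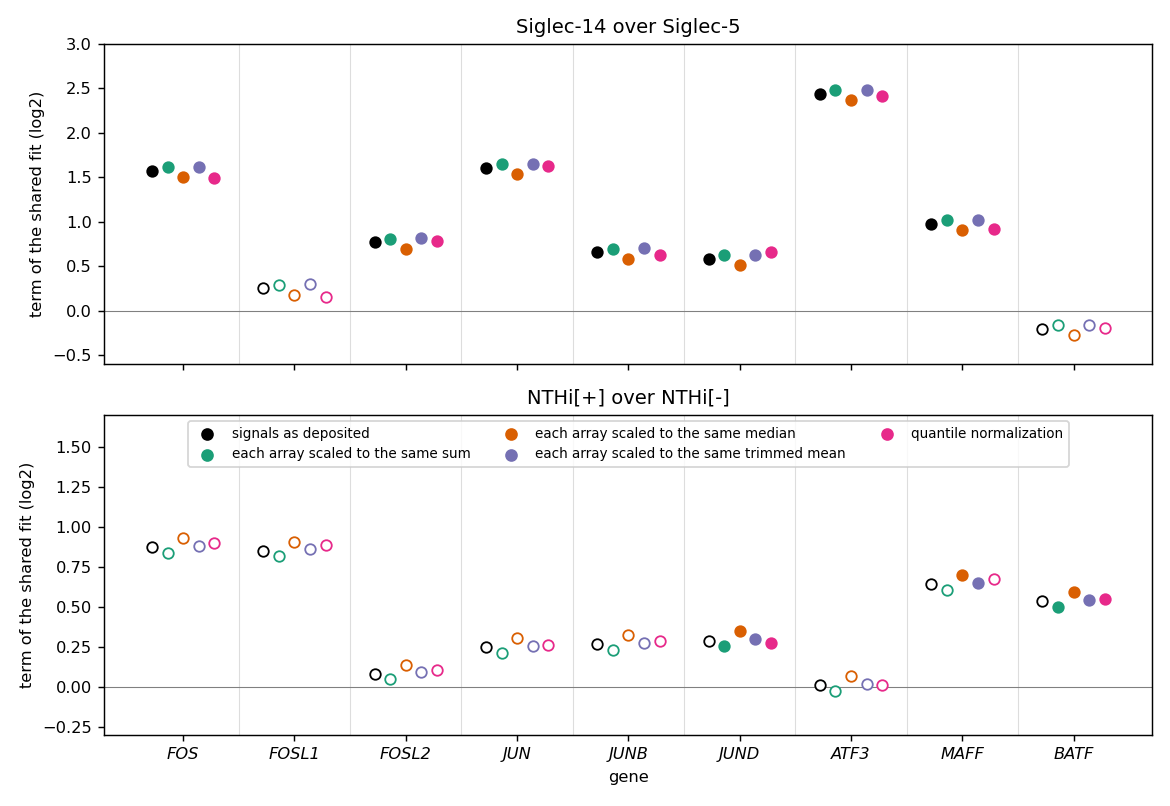
Terms of the shared fit (log2) for the 9 members under 5 scalings of the arrays, with the line term above and the NTHi term below; filled points passed an adjusted p of 0.05 and open points did not. The 7 line calls hold under all 5 scalings (background 6.24% as deposited, 13.1% with the same sum, 7.41% median, 13.5% trimmed mean, 11.1% quantile), whereas for NTHi JUND and BATF pass only when the arrays are rescaled, and MAFF in 2 of the 4 rescalings.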

How the data were processed

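Total RNA (250 ng) of 4 samples, 1 per condition, was hybridized to U133 Plus 2.0 GeneChips. By the methods and the submitters' processing notes, signals were quantified in GCOS (version not given in the sources used here) and standardized by the authors on the cumulative signal. The deposited values are signal intensities on a linear scale, whose sums differ between arrays. They were used as deposited.

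Of 54675 probe sets, 41097 are listed for 1 gene in the platform's annotation. By gene ID, 41043 of them matched RefSeq (GRCh38.p14) and 0 symbols changed. A gene was read on its probe set of highest mean signal. limma 3.58.1 (R 4.3.3) was fitted to log2 signals with eBayes and an intensity trend on 31981 probe sets that were not below the floor throughout, and p-values were adjusted by Benjamini-Hochberg over all of them. The fit leaves 1 residual degree of freedom, with infinite prior degrees of freedom. Data were simulated with 4-fold changes and independent noise of the size of limma's own trend. There, 157 of 200 probe sets were recovered (104 of 104 bright ones) with 46 false calls, 1 of them bright, among 31781 unchanged. With noise from a local fit to the residuals, 157 were recovered and 33 calls were false. Neither simulation held a shift between arrays or changes as small as the NTHi terms of the members, so neither bears on those calls.

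The text names all 10 members, genes of 3 lists (other bZIP genes, upstream MAP kinases, textbook targets) that passed for NTHi or reached 3-fold in a pair of arrays, and the 3 nearest profiles of a member. JDP2, CREM, DDIT3, CREB3, MAPK11, RPS6KA1, PLAU, TIMP1 and VEGFA, which passed for the line only, were named after their values were seen. Members and lists were chosen with earlier results of these data known. Alternatives were 4 scalings, other floors, a pseudocount, no trend, 1 factor left out, other folds and other probe sets. Python 3.11.15, numpy 2.4.6, pandas 2.3.3 and matplotlib 3.10.9 were used for the rest. Serum measurements are not analysed here.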

Additional observations from a re-analysis of the deposited data

Results flagged for a closer look

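FOSL2 and ATF3 stood out because their signals moved in opposite directions with NTHi in the 2 lines. The log2 ratio of NTHi[+] to NTHi[−] for FOSL2 was 0.43 in Siglec‐14 cells and -0.27 in Siglec‐5 cells, a difference of 0.70. With each array scaled to the same sum, the ratios of FOSL2 were 0.30 and -0.20. For ATF3 the log2 ratio was 0.08 and -0.06, a difference of 0.15, and both signs turned under that scaling (-0.05 and 0.0003). Each line has 1 array per condition, and neither difference was tested.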

How the results depend on the processing

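The count of 7 members higher in Siglec‐14 cells was 6 or 7 under 9 of the 10 alternatives and 0 without the intensity trend, where 0 of 13933 genes passed as well. For NTHi, where 0 members passed as deposited, 2 passed with arrays scaled to the same sum or by quantiles and 3 with the same median or trimmed mean, and 0 under the other 6 alternatives. Over all genes, 179 passed for NTHi (77.1% of calls higher), against 721 (47.4% higher) with the same sum, 362 with the same median, 752 with the same trimmed mean, 332 by quantiles, and 0 without the trend or without cell line. For the lines, 1559 passed (55.7% higher), against 3657, 3235 (31.9% higher), 3687 and 3117 under the same scalings.

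With the threshold at 2-fold, 1 member was past it with NTHi in Siglec‐14 cells, 2 in Siglec‐5 cells and 5 between the stimulated lines. At 4-fold, 1 member, ATF3, remained between the lines in either condition. In Siglec‐5 cells, 1 member, FOSL1, reached 3-fold with NTHi under each of the 4 scalings (1.87% of all genes did as deposited), over a resting signal below the floor, and 0 did with signals raised to the floor. In the same comparison 2, JUND and ATF3, reached 3-fold on dim probe sets when any probe set counted. Between the resting lines, 1 member was left with the floor at the 75th percentile or with signals raised to the floor, and 4 were found with any probe set, 1 of them, FOSL2, lower in Siglec‐14 cells. Between the stimulated lines 3 were found with any probe set, 1 of them, JUND, lower in Siglec‐14 cells on a dim probe set. The share of all genes was not counted for any probe set or for these other floors. The cause of these shifts was not tested. Of 216 alternative values for 36 single ratios, 198 moved by less than the spread of probe sets of like intensity, and 12, for ATF3, JUND and FOSL2, changed sign, none of them a ratio past 2-fold. The median log2 ratio of genes at or above the 75th percentile was 0.10, -0.11, 0.04 and -0.17 for NTHi in Siglec‐14 cells, NTHi in Siglec‐5 cells, and the lines with and without NTHi, and 0.00 to -0.02 after quantile normalization. No paired analysis was possible because each condition has 1 array. Signals near the floor, such as those of FOSL1 and FOS, limit what can be read.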
